A study of Mus musculus with 6 samples.

Results

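Astrocyte genes were followed in the cortex of mice without HtrA2, a protease held between the membranes of mitochondria. The list was set by gene symbol and holds 30 genes. Of these, 16 are identity genes, which mark astrocytes in the healthy brain, and 14 are reactive genes, which astrocytes raise after injury or in inflammation. A member was measured if at least 1 probe set named it alone, which held for 29 of the 30, out of 18193 genes named on the array. C4b, which encodes a complement component, had only a probe set that also names C4a and was not analysed here. The 16 identity genes had 43 probe sets and the 13 measured reactive genes had 35, so 78 of 45037 tested probe sets belong to the list, and no filter on low values was applied to them.

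The study compared 3 arrays of cortex from wild type mice with 3 arrays of cortex from HtrA2 knockout littermates, all at postnatal day 29, from total RNA on an Affymetrix expression array. The design text calls this a cortical region without evidence of neuron loss and asks which transcripts differ there. The labels name no drug or other treatment for either group. Strain, sex, how the HtrA2 allele was made, and whether an array holds 1 animal or several are not given in the sources used here. Because the labels do not say that arrays came from separate animals, the p-values cover only the spread among these arrays.

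Astrocytes clear glutamate and potassium from the space around synapses, move water and ions at end-feet on blood vessels, and share metabolites through gap junctions. When tissue is injured or inflamed they pass into reactive states, in which the intermediate filaments GFAP and vimentin accumulate and a set of secreted and surface proteins is induced. In healthy mouse cortex GFAP is low in most astrocytes, and it is high in those under the meninges and along white matter, so its transcript depends on the state and on the place of the cells.

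Levels are RMA values on the log2 scale, and differences are knockout minus wild type on that scale, ± the standard error of limma's fit, with n = 3 arrays in each group. A gene counted as changed if 1 of its probe sets had a Benjamini-Hochberg adjusted p under 0.05 over all probe sets. Levels of different probe sets are not comparable as amounts of RNA, so genes are compared between arrays only, and the array-wide median serves as a rough mark of bright and dim probe sets. In whole tissue, fewer astrocytes and less RNA per astrocyte cannot be told apart.

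The 6 arrays had medians between 6.397 and 6.455, and no array repeated the values of another. All 16 identity genes and all 13 measured markers of cortical excitatory neurons had their main probe set, chosen as the brightest on average, above the median of all probe sets (6.42), and 4 of 10 genes of brain regions outside cortex did. Of 2 probe sets for Htra2, 1 fell by 2.27 and 1 rose by 1.11 in the knockout. Xist and Y-linked genes set wild type replicate 1 and knockout replicate 3 apart from the other 4 arrays. The mean Y-linked level was 4.02 to 4.03 in that pair and 7.73 to 7.965 in the others. Xist, at its brightest probe set, read 10.90 and 11.01 in the pair and 6.16 to 7.00 in the others. High Xist with low Y-linked levels is the pattern of female tissue, though the labels give no sex. Each group thus held 1 array with low Y-linked levels. Choroid plexus RNA differed between arrays, with its transcript Ttr at 12.86 in wild type replicate 2, at 8.46 and 8.62 in the other wild type arrays and at 7.32 to 7.61 in the knockout. Markers of meninges and fibroblasts were higher in 18 of 19 genes, with 0 past the test. As a mean over these genes, knockout replicates 1 and 3 stood 0.45 and 0.82 above the wild type mean and replicate 2 stood 0.09 above it, while wild type arrays lay at -0.06 to 0.12.

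Identity genes lay mostly below wild type in the knockout and reactive genes mostly above it. Of 16 identity genes 3 fell (Aqp4, S100b and Acsbg1), 0 rose and 13 did not pass the test. Of 13 measured reactive genes 2 rose (Gfap and Fbln5), 0 fell and 11 did not pass. These are 18.8% of the identity and 15.4% of the reactive genes, where over all genes 1.67% fell and 1.64% rose. Over all probe sets 1.77% were called, and 3.14% of those at or above the array-wide median, where the main probe sets of the identity genes lie. The median difference was -0.17 over the identity genes and 0.29 over the reactive genes, against 0.02 over all 18193 genes. Main probe sets were lower for 11 of 16 identity genes and higher for 11 of 13 reactive genes, where 54.9% of all genes had a difference above 0. No difference between the classes was tested, and since earlier results of these data were known when the list was made, the counts are a description of it.

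**Figure D1:**
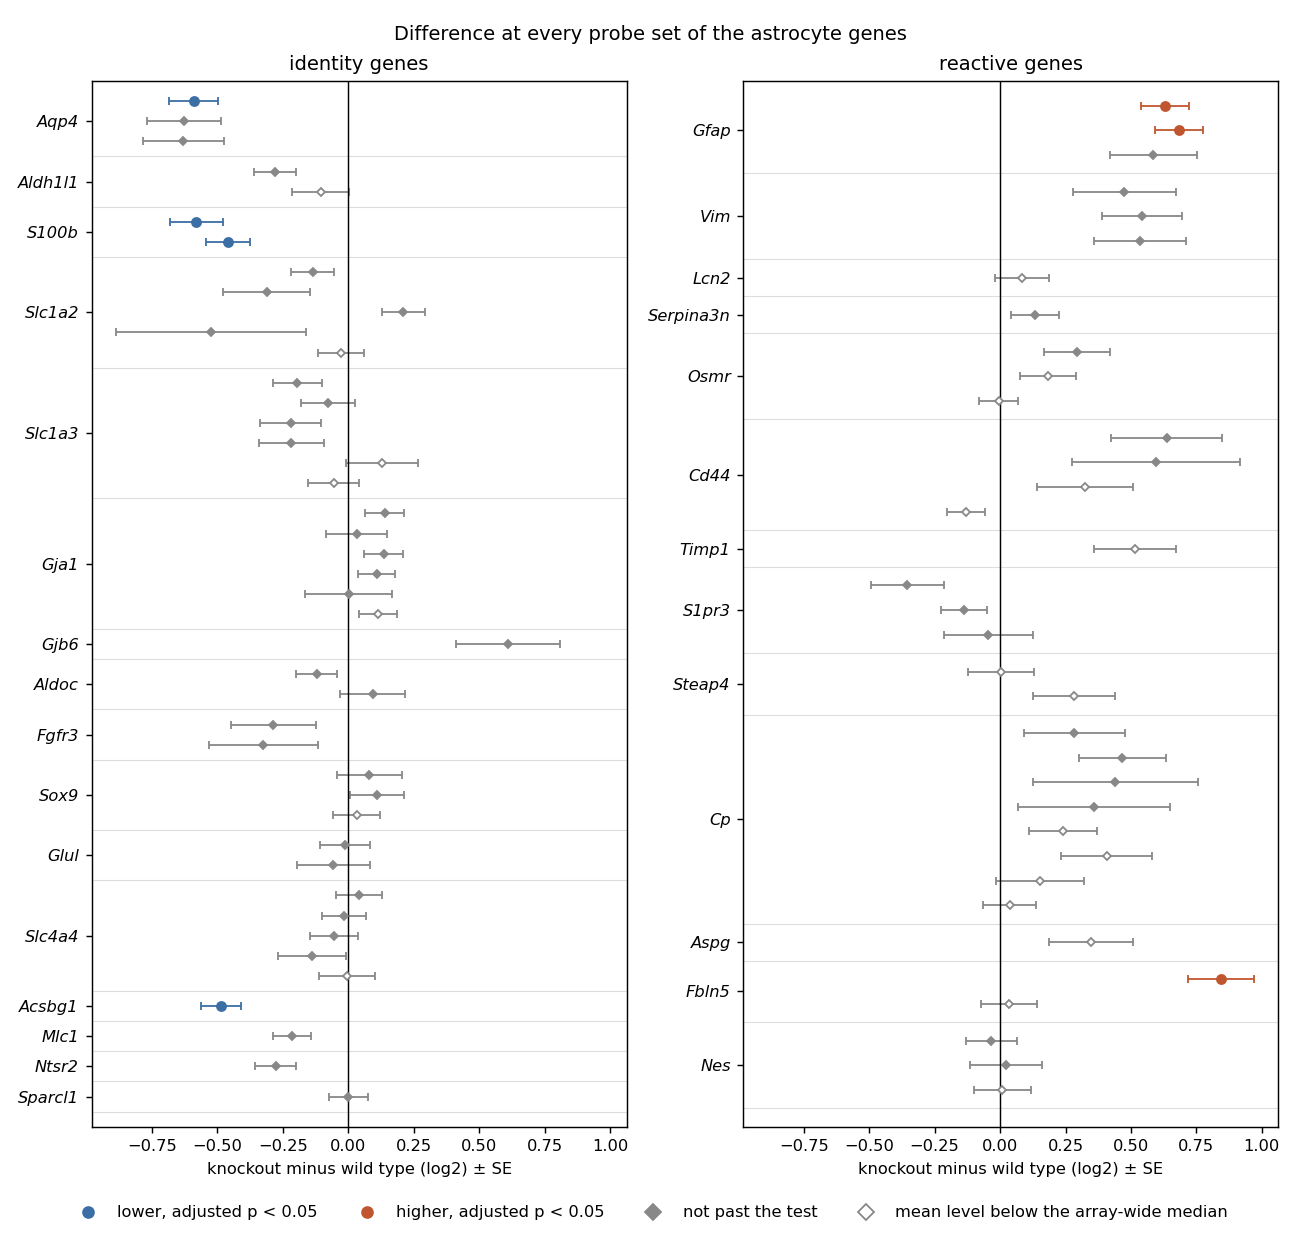
Difference between knockout and wild type cortex (log2, horizontal axis) at each of the 78 probe sets, with the standard error of limma's fit as bars; identity genes are on the left and reactive genes on the right, and open symbols mark probe sets whose mean level lies below the array-wide median. The 4 identity probe sets past the test lie between -0.59 and -0.46, the 3 reactive ones between 0.63 and 0.84.

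The calls rest on few arrays. Without wild type replicate 1, 2 or 3, or without knockout replicate 3, none of the 5 genes passed, while the number of probe sets called over the whole array dropped from 796 to 70, 65, 107 and 103. Without knockout replicate 1, S100b and Gfap passed. Knockout replicate 2 correlated least with its own group (mean r over probe sets 0.993, against 0.995 to 0.998 for the others). When it was left out, 3037 probe sets were called on the array (6.74%), and with them 4 identity genes as lower (Aqp4, S100b, Acsbg1 and Ntsr2) and 7 reactive genes as higher (Gfap, Fbln5, Vim, Cd44, Cp, Osmr and Steap4). The identity median was then -0.09 and the reactive median 0.43. Within the 4 arrays of high Y-linked level the medians were -0.19 and 0.19, and between the pair of low level, 1 array against 1, they were -0.07 and 0.45, with no test.

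Water and ion transport at the end-feet gave the first of the falls. Aqp4, the water channel of astrocyte end-feet, read 11.01, 11.08 and 11.27 in wild type replicates 1 to 3 and 10.59, 10.43 and 10.56 in the knockout at its main probe set. Every knockout array lay below every wild type array, and Aqp4 fell by 0.59 ± 0.09 (1.51-fold lower, adjusted p = 0.0273). Its other probe sets differed by -0.63 each, also without overlap between the groups, but with more spread within them (adjusted p = 0.0762 and 0.0896). With single arrays left out the main probe set differed by -0.65 to -0.51 (adjusted p from 0.022 to 0.14), and the call held only without knockout replicate 2. Mlc1, a membrane protein of the same end-feet, read 10.46, 10.39 and 10.35 in wild type and 10.21, 10.12 and 10.22 in the knockout. That is a small shift without overlap, -0.21 ± 0.07, which did not pass (adjusted p = 0.185). Slc4a4, the sodium bicarbonate cotransporter, differed by 0.04 ± 0.09 at its main probe set and by -0.14 to 0.04 over all 5, and the groups overlapped at each of them.

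S100b, a calcium-binding protein that astrocytes also secrete, passed at both of its probe sets. The main probe set read 10.30, 10.34 and 10.27 in wild type and 9.92, 9.55 and 9.69 in the knockout. The wild type arrays lay close together (SD 0.03), the knockout arrays were more spread (SD 0.19) and all below them, and the difference was -0.58 ± 0.10 (1.5-fold lower, adjusted p = 0.0367). The other probe set fell from 9.84, 9.93 and 9.87 to 9.39, 9.55 and 9.31, a difference of -0.46 ± 0.08 (adjusted p = 0.0408). Left-out arrays gave an adjusted p from 0.0233 to 0.195 at the main probe set, which passed without knockout replicate 1 or 2 and failed without any other array. When the fit also held the Y-linked level, S100b did not pass (adjusted p = 0.0646 and 0.0578). Within the 2 wild type and 2 knockout arrays of high Y-linked level the main probe set differed by -0.57, and between the 1 wild type and 1 knockout array of low level by -0.60; since its groups do not overlap, both values had to be below 0 and say nothing about stability.

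Among enzymes, Acsbg1, which activates long-chain fatty acids, fell. It read 9.94, 9.86 and 9.78 in wild type and 9.38, 9.33 and 9.41 in the knockout. The knockout arrays lay close together (SD 0.04) and below all wild type arrays, with a difference of -0.49 ± 0.08 (1.4-fold lower, adjusted p = 0.0267). When 1 array was left out the adjusted p was 0.0199 to 0.157, and only the fit without knockout replicate 2 kept the call. Aldh1l1, the folate enzyme used as a general astrocyte marker, read 9.58, 9.63 and 9.75 in wild type and 9.33, 9.36 and 9.43 in the knockout. The groups did not overlap at this main probe set, but the difference of -0.28 ± 0.08 did not pass (adjusted p = 0.124). A second, dim probe set of Aldh1l1 differed by -0.11 ± 0.11 with overlapping groups. Aldoc, the brain form of aldolase, differed by -0.12 ± 0.08 at its main probe set and by 0.09 ± 0.13 at the other, both with overlapping groups.

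Glutamate uptake and the making of glutamine showed no difference past the test at any of 13 probe sets. Slc1a2, the main glutamate transporter of cortical astrocytes, read 13.59, 13.59 and 13.71 in wild type and 13.56, 13.37 and 13.55 in the knockout, a difference of -0.14 ± 0.08 with the groups narrowly apart. Its 5 probe sets did not point one way: 1 differed by 0.21 ± 0.08 with every knockout array higher, and the other 4 lay between -0.52 and -0.03. Slc1a3, the second astrocyte glutamate transporter, differed by -0.19 ± 0.09 at its main probe set, without overlap, and by -0.22 to 0.13 over its 6. Glul, glutamine synthetase, differed by -0.01 ± 0.10 and -0.06 ± 0.14.

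Gap junction genes lay above wild type rather than below it at their main probe sets, without a call. Gjb6, which encodes connexin 30, read 10.34, 10.25 and 10.27 in wild type and 10.67, 10.60 and 11.42 in the knockout. All knockout arrays were above all wild type arrays, but knockout replicate 3 stood far above the other 2, and the difference of 0.61 ± 0.20 did not pass (adjusted p = 0.166). Without that array it was 0.35. Gja1, which encodes connexin 43, differed by 0.14 ± 0.07 at its main probe set and by 0.0014 to 0.14 over its 6 probe sets, with 4 of them higher without overlap. These 4 have names ending in _x_at, which mark probes that may bind other transcripts. Its probe sets without that ending differed by 0.03 ± 0.12 and 0.0014 ± 0.17, with overlapping groups.

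Receptors and regulators of the identity class gave no call, and 2 of them depended on knockout replicate 2 at their main probe set. Ntsr2, a neurotensin receptor of astrocytes, read 11.51, 11.41 and 11.47 in wild type and 11.09, 11.28 and 11.19 in the knockout, a difference of -0.28 ± 0.08 without overlap that did not pass (adjusted p = 0.123) and that passed without knockout replicate 2 (-0.32, adjusted p = 0.0436). Fgfr3, a fibroblast growth factor receptor, read 10.25, 10.12 and 10.23 in wild type and 10.06, 9.51 and 10.19 in the knockout. At this main probe set replicate 2 alone was clearly low, and the difference of -0.29 ± 0.16 shrank to -0.08 without it. The other Fgfr3 probe set differed by -0.32 ± 0.21 with overlapping groups. There knockout replicate 1 was the lowest array, and without replicate 2 the difference was larger, at -0.40. Sox9, a transcription factor of the astrocyte lineage, differed by 0.08 ± 0.13 and Sparcl1, a secreted protein that promotes synapse formation, by 0.0004 ± 0.07.

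The intermediate filament Gfap gave the clearest rise of the reactive class. It read 9.72, 9.85 and 9.78 in wild type and 10.36, 10.30 and 10.58 in the knockout at its main probe set. Every knockout array stood above every wild type array, and Gfap rose by 0.63 ± 0.09 (1.55-fold, adjusted p = 0.0228). Another probe set went from 8.83, 8.89 and 9.02 to 9.60, 9.48 and 9.71, a rise of 0.68 ± 0.09 (adjusted p = 0.0162). The last differed by 0.59 ± 0.17 without overlap and did not pass (adjusted p = 0.126), its knockout arrays spreading from 8.61 to 9.32. Leaving out single arrays gave an adjusted p of 0.00803 to 0.113 at the probe set with the larger rise, which passed without knockout replicate 1 or 2 and failed without knockout replicate 3 or any wild type array.

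Vim, which encodes vimentin, the partner of GFAP in astrocyte filaments, was uneven among knockout arrays. It read 9.13, 9.26 and 9.32 in wild type and 9.69, 9.28 and 10.17 in the knockout at its main probe set, where replicate 2 lay inside the wild type range. At its other probe sets replicate 2 was also the lowest knockout array, but it lay above every wild type array. It read 9.38 against at most 9.23 in wild type at the first of these, and 8.49 against at most 8.43 at the second. The differences at its 3 probe sets were 0.47 to 0.54 and did not pass (adjusted p from 0.123 to 0.274). Without knockout replicate 2 they were 0.69 to 0.74 and all passed (adjusted p from 0.0173 to 0.0355), and without knockout replicate 3 they were 0.25 to 0.38 and none passed. Nes, which encodes nestin, a filament of progenitors and of some reactive astrocytes, differed by -0.03 ± 0.10 and by at most 0.02 at its other probe sets.

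Fbln5, an extracellular protein of elastic fibres, had the largest difference of the list. It read 7.26, 7.42 and 7.50 in wild type and 8.33, 7.97 and 8.42 in the knockout. The groups were well apart, and Fbln5 rose by 0.84 ± 0.13 (1.8-fold, adjusted p = 0.0236). A second, dimmer probe set differed by 0.03 ± 0.11. With 1 array left out the adjusted p was 0.00484 to 0.13, under the threshold only without knockout replicate 2. Timp1, an inhibitor of matrix metalloproteases, has 1 probe set, which is dim. It read 5.32, 5.21 and 5.68 in wild type and 5.63, 6.09 and 6.03 in the knockout, with overlapping groups. The difference of 0.52 ± 0.16 did not pass (adjusted p = 0.149).

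Surface receptors of the reactive class were split. Cd44, the hyaluronan receptor, read 7.63, 7.27 and 7.77 in wild type and 8.48, 7.71 and 8.39 in the knockout. At this main probe set knockout replicates 1 and 3 were high and replicate 2 lay among the wild type arrays. The difference of 0.64 ± 0.21 did not pass (adjusted p = 0.179), and without replicate 2 it was 0.88 (adjusted p = 0.0197). Over its 4 probe sets Cd44 differed by -0.13 to 0.64. At 1 of its 2 dim probe sets every knockout array lay below every wild type array. At the other dim one, replicate 2 was the highest of the knockout arrays. Osmr, the oncostatin M receptor, which signals through STAT3, differed by 0.29 ± 0.125 at its main probe set. There knockout replicate 2 also lay inside the wild type range. Its other probe sets, both dim, differed by 0.18 ± 0.11 and -0.0049 ± 0.07. At the first of these, replicate 2 lay above every wild type array. S1pr3, a sphingosine 1-phosphate receptor, was the reactive gene with the lowest difference at the main probe set, -0.35 ± 0.14. There knockout replicate 1 (8.85) lay inside the wild type range of 8.81 to 9.01 and the others read 8.33 and 8.41. The other S1pr3 probe sets differed by -0.14 ± 0.09 and -0.045 ± 0.17, both with overlapping groups.

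The remaining reactive members, among them acute-phase proteins, gave no call. Cp, which encodes ceruloplasmin, a copper-binding ferroxidase, differed by 0.04 to 0.47 at its 8 probe sets, all above 0. At the main one knockout replicate 3 read 8.36, replicate 1 read 7.85 and replicate 2 read 7.54, against 7.59, 7.80 and 7.49 in wild type, so replicate 3 was well above the rest, replicate 2 lay inside the wild type range, and the difference was 0.28 ± 0.19. At 2 of the 8 every knockout array lay above every wild type array, and the groups overlapped at the others. Among those others, replicate 2 read 6.09 against at least 6.32 in wild type at 1 probe set, and 6.05 against at least 6.20 at another. Lcn2, lipocalin 2, lay below the array-wide median on every array (3.86 to 4.25) and differed by 0.08 ± 0.10. Serpina3n, a protease inhibitor that reactive astrocytes secrete, differed by 0.13 ± 0.09. The metalloreductase Steap4 differed by 0.0028 ± 0.13 and 0.28 ± 0.16 at 2 dim probe sets. Aspg, an asparaginase, has 1 probe set, which is dim. It read 6.07, 5.99 and 6.08 in wild type and 6.08, 6.78 and 6.31 in the knockout, with groups apart by a hair. The difference of 0.35 ± 0.16 did not pass (adjusted p = 0.329). Without replicate 2, the highest array, the difference was 0.15.

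**Figure D2:**
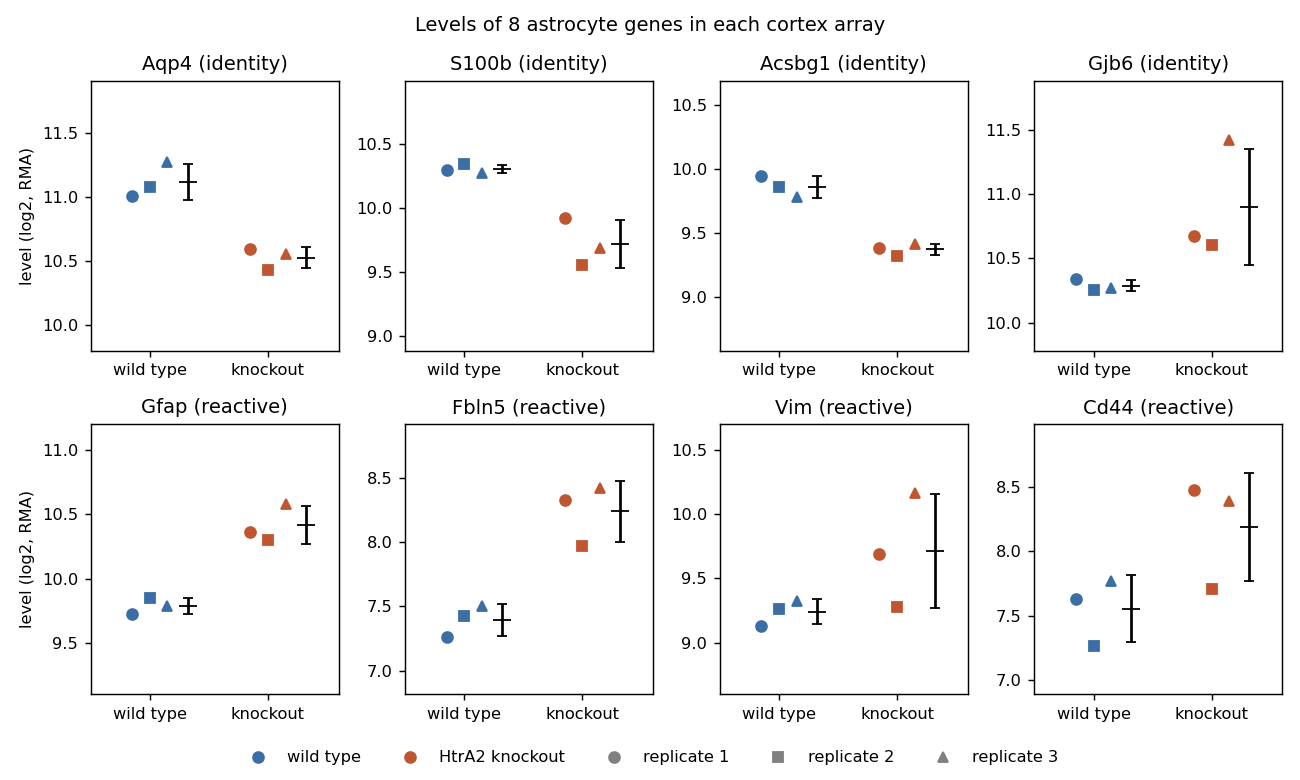
Level (RMA, log2) of 8 genes at their main probe set in each array, with symbols for the replicate and the group mean ± SD (n = 3) beside the points; every panel spans the same range of log2 units. For Aqp4, S100b, Acsbg1, Gjb6, Gfap and Fbln5 the groups do not overlap, while knockout replicate 2 lies among or beside the wild type arrays for Vim and Cd44.

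The members did not move as a block within the knockout. Knockout replicate 3 was the highest of the 3 knockout arrays for 11 of 16 identity genes and the lowest for 0, and replicate 2 was the lowest for 10. Averaged over the identity genes, knockout replicates 1 to 3 stood at -0.17, -0.23 and -0.04 relative to the wild type mean, against -0.02 to 0.01 in wild type. For the reactive genes it was 0.28, 0.23 and 0.38, against -0.04 to 0.04. Knockout replicate 2 was the lowest of the 3 for 7 of 13 reactive genes, Vim, Cd44, Cp and Osmr among them, and the highest for 5, among them Timp1, Aspg and Serpina3n. Groups did not overlap at the main probe set of 8 identity genes as lower and 2 as higher, and of 3 reactive genes as higher, where 12.8% of all genes were apart as lower and 15.6% as higher.

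**Figure D3:**
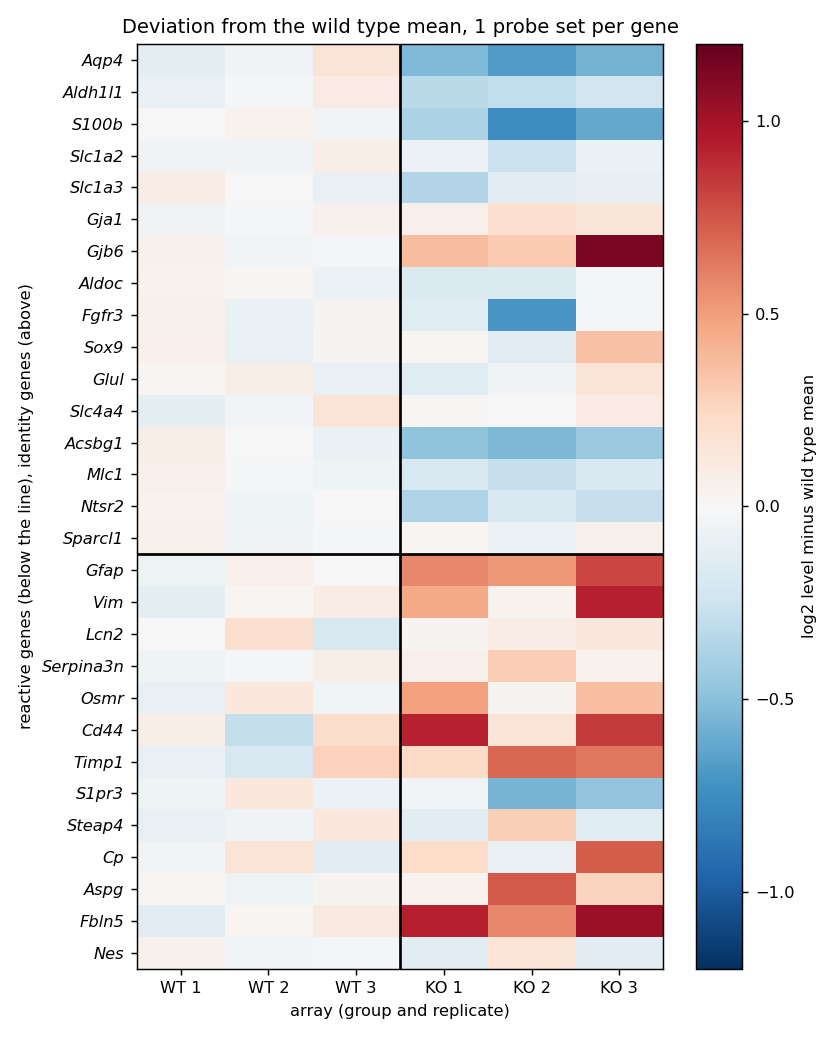
Deviation of each array from the wild type mean (log2, colour) at the main probe set of the 29 measured genes, with the identity genes above the horizontal line, the reactive genes below it and the wild type arrays left of the vertical line. Aqp4, S100b and Acsbg1 are low and Gfap and Fbln5 high in all 3 knockout arrays; Vim, Cd44 and Cp are close to wild type in replicate 2, at 0.04, 0.15 and -0.09.

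Markers of other cells moved beside these genes. Vim, Cd44, Fbln5, Timp1 and Cp are also made by fibroblasts, vessels or meninges. The 19 markers of meninges and fibroblasts had a mean level of 8.11 to 8.29 in wild type and 8.26 to 8.995 in the knockout. Their median difference was 0.43, and 7 of the 19 were apart as higher (15.6% over all genes). In knockout replicate 2 those markers were near wild type. In that array Gfap, Fbln5 and Timp1 stood 0.52, 0.58 and 0.69 above the wild type mean at their main probe sets, of which that of Timp1 is dim. Vim, Cd44 and Cp stood at 0.04, 0.15 and -0.09 at their main probe sets. For Vim and Cp this depended on the probe set. At the other probe sets of Vim, and at 2 of the 8 of Cp, every knockout array lay above every wild type array. Mural cell markers were also lowest in replicate 2, with means of 0.22, -0.02 and 0.22 in knockout replicates 1 to 3 and 0 of 12 past the test, and endothelial markers had 0.14, 0.01 and 0.11 with 0 of 15. The part of these cells in the rise of the reactive genes was not tested.

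Ependymal and choroid plexus markers, of which ependymal cells also make S100b and Aqp4, were lower in 13 of 14 genes with 0 past the test, and their mean level was 5.83 to 6.85 in wild type and 5.59 to 5.795 in the knockout. Wild type replicate 2 held their highest level, and without it Aqp4, S100b and Acsbg1 differed by -0.61, -0.56 and -0.49, against -0.59, -0.58 and -0.49 with it, and none passed (adjusted p from 0.14 to 0.195). The part of ependymal and choroid plexus cells in these falls was not tested. Among the other cell types of cortex, 3 of 16 microglia markers, 1 of 12 oligodendrocyte, 2 of 10 oligodendrocyte progenitor and 2 of 15 neuron markers fell (1.67% over all genes) and 0 rose. The microglia share, 18.8%, equals that of the identity genes. The medians of these lists were -0.23, -0.25, -0.33 and -0.185, so these lists had medians as low as that of the identity genes or lower. Of 13 excitatory neuron markers 2 fell, with a median of -0.05. Blood markers had a median of -0.11, with 1 of 7 lower.

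**Figure D4:**
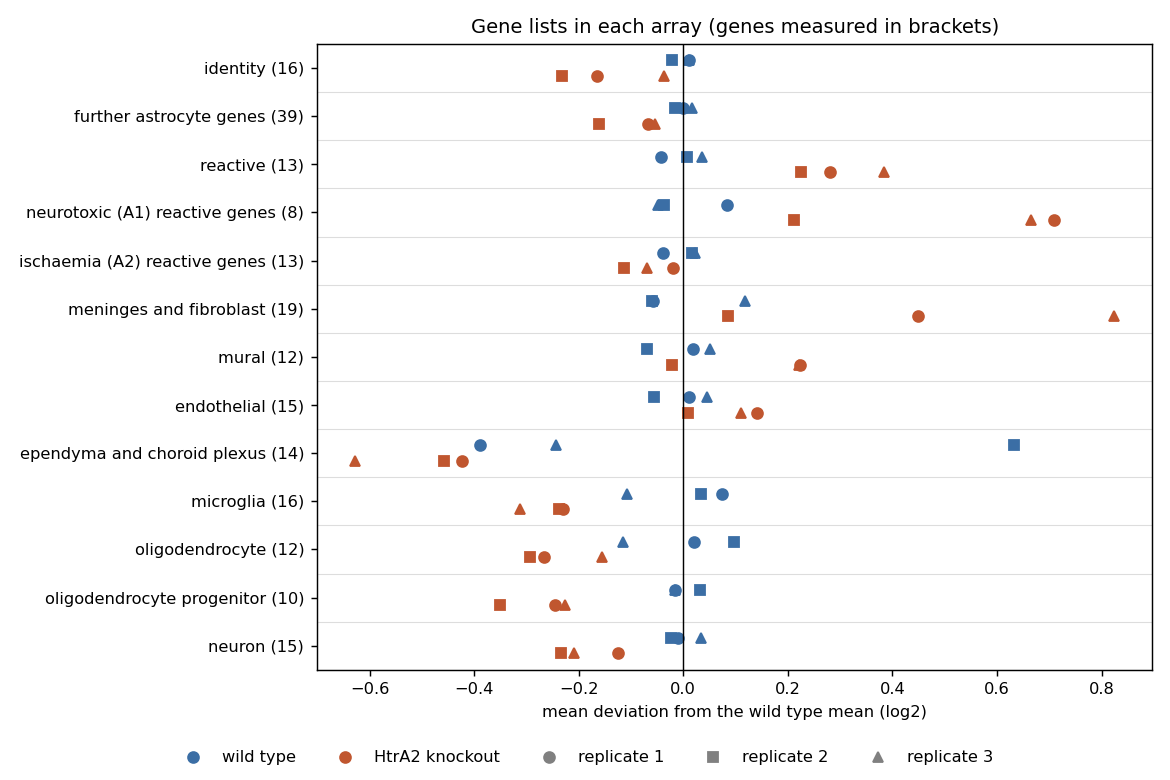
Mean deviation from the wild type mean (log2) of each gene list in each array, with 1 probe set per gene and the number of genes measured in brackets. The reactive list lies above wild type in all 3 knockout arrays (0.23 to 0.38), and the meningeal list spreads from 0.09 to 0.82 over the same arrays.

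Astrocyte genes outside the 30 were mixed. Of 39 further astrocyte genes 2 rose and 6 fell (1.64% and 1.67% over all genes), and 31 did not pass, with a median of -0.13. Without overlap, 17 were lower and 9 higher (12.8% and 15.6% over all genes). Agt, which encodes angiotensinogen, went from 8.82, 8.91 and 9.20 to 10.23, 10.34 and 10.46 and rose by 1.37 ± 0.12 (adjusted p = 0.0036). Etnppl, a phospholyase of astrocytes, rose by 1.77 ± 0.23. Dio2, which converts thyroid hormone to its active form, went from 10.24, 10.15 and 10.25 to 9.10, 8.89 and 8.84 and fell by 1.27 ± 0.09 (adjusted p = 0.00173). Hes5, a Notch target, fell by 0.64 ± 0.08 at 1 of its 2 probe sets. Marked changes among these genes thus went both ways.

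Partner genes of the end-feet and of glutamate handling are set against the 1.67% of all genes that fell and the 1.64% that rose. Of 10 measured end-foot and ion transport genes 1 fell, Dtna, which encodes dystrobrevin alpha of the complex that anchors aquaporin 4, by 0.70 ± 0.07 at 1 of its 7 probe sets (adjusted p = 0.00642), and the list's median was -0.10. Of 12 genes of the glutamate and glutamine cycle 1 rose and 1 fell, with a median of 0.0036. The cystine and glutamate exchanger Slc7a11 rose by 0.67 ± 0.08 at the dimmer of its 2 probe sets (adjusted p = 0.0139), and the glutamate receptor Grm3, found in astrocytes and neurons, fell by 0.73 ± 0.11 (adjusted p = 0.0227).

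Reactive genes beyond the list are often grouped as those raised by systemic inflammation (A1) and those raised by ischaemia (A2). Of 8 measured A1 genes 1 rose (1.64% over all genes), the class I antigen gene H2-D1, by 0.72 ± 0.10 (adjusted p = 0.0167). Of the 8, 7 had a difference above 0 (54.9% over all genes), and the median was 0.63. H2-D1 has 9 probe sets and near-identical relatives, so its value is uncertain. Of 13 A2 genes 1 fell (1.67% over all genes), Ptgs2, cyclooxygenase-2, by 1.42 ± 0.19 (adjusted p = 0.0174). Of these 13, 0 rose, and the median was 0.03. Of 16 further reactive genes 0 passed. Cxcl10, a chemokine induced by interferon, differed by 2.28 ± 0.51 (adjusted p = 0.0722), reading 9.17, 6.73 and 7.66 in the knockout against 5.45 to 5.65 in wild type, and Thbs1, thrombospondin 1, differed by 0.40 ± 0.11 at the dimmer of its 2 probe sets. The A1 list deviated by 0.71, 0.21 and 0.67 in knockout replicates 1 to 3, and H2-D1 and Cxcl10 are also genes of microglia and vessels. No member passed among 18 genes of gp130, JAK and STAT3 signalling, the pathway that drives Gfap in reactive astrocytes, with a median of 0.02; Pias3, an inhibitor of STAT3, differed by 0.44 ± 0.12 and the phosphatase Ptpn11 by 0.23 ± 0.07.

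Promoter sequence of the changed genes is shown because Gfap is a textbook STAT3 target and the falling identity genes offer a comparison. The stretches run from 150 bases before to 10 bases after the start of the gene, 5′ to 3′ along the gene's strand, from RefSeq on GRCm38.p6. Capitals mark the STAT motif TTCNNNGAA, searched on both strands, and the AP-1 motif TGANTCA, the TATAAA box and a full NFI site were searched too and lie in none of these stretches. Gfap lies at chr11:102897191-102897350, on the minus strand, Acsbg1 at chr9:54661876-54662035, on the minus strand, S100b at chr10:76253686-76253845, on the plus strand, and the first of 2 listed starts of Fbln5 at chr12:101819110-101819269, on the minus strand.
Gfap: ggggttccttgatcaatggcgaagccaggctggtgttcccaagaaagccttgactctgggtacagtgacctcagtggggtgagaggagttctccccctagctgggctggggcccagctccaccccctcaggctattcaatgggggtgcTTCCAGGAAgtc
Fbln5: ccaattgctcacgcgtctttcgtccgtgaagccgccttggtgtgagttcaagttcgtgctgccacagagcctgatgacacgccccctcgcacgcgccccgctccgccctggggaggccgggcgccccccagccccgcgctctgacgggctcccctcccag
Acsbg1: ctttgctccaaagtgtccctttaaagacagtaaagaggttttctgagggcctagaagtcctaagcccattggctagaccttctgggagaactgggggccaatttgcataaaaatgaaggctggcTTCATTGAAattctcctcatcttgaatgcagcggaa
S100b: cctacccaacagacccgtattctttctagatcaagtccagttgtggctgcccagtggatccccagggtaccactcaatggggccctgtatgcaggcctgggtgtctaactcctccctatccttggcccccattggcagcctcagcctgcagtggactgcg
The STAT letters span bases -2 to 7 around the Gfap start and bases -26 to -18 before the Acsbg1 start, so a riser and a faller both carry them, and the Fbln5 and S100b stretches hold none.

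Windows from 250 bases before to 50 after the start were listed for 13 identity and 13 reactive genes; Aqp4, Sox9, Sparcl1 and C4b were not among them. The STAT motif was in a window of 4 identity genes (Slc1a3, Aldoc, Acsbg1 and Ntsr2) and 2 reactive genes (Gfap and Steap4), and in 9.55% of the 27025 genes listed. The AP-1 motif was in 1 identity gene (Gja1) and 2 reactive genes (Osmr and Cp), against 8.97% of genes. TATAAA was in Slc1a3 among identity genes and in Vim, Steap4 and Cp among reactive genes, against 15.7% of genes, and the NFI site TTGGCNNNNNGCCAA in none of either class, against 0.0444%. A match is a string of letters in this window and not a bound site.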

How the data were processed

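The deposited table holds 1 log2 value per probe set and array for 3 wild type and 3 HtrA2 knockout cortex arrays. RMA, which corrects background, quantile normalizes and summarizes probe sets, is the tool named, per the submitters' processing notes, and no version is given. The authors' table does not state the base of the logarithm, which was read as 2 from the range of the values. RMA hides a change shared by most genes and compresses differences among dim probe sets. Arrays give no counts, so their number limits the precision.

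After 64 control probe sets were left out, 45037 were fitted with limma 3.58.1 in R 4.3.3 (lmFit and eBayes, group as the only term, two-sided) and adjusted over all of them. The code was tested on simulated data. Genes were named from the platform annotation and, by gene identifier, RefSeq GRCm38.p6: 34945 probe sets named 1 gene, 932 several and 9160 none. Lists were described by counts and medians over 1 probe set per gene. The members, the lists and the rule for named genes (all members; of other lists up to 4 called genes by smallest p, or 2 where none passed) were chosen with earlier results of these data known. Tried besides were dropping dim probe sets, limma-trend, median centring, quantile normalizing again, array weights, the replicate number as a block, the Y-linked level as a covariate, 1 probe set per gene, leaving out _s_at and _x_at probe sets, another threshold and leaving out each array. Promoters were searched with Python 3.11.15.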

Additional observations from a re-analysis of the deposited data

How the results depend on the processing

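The 7 member probe sets past the test kept their direction in every alternative that held them (Gfap's _s_at probe set was in neither the fit with 1 probe set per gene nor that without _s_at and _x_at, and S100b's second was not in the former), which is fixed in part because their groups do not overlap. The same 5 genes were called with the dim filter, further quantile normalization, median centring, 1 probe set per gene, without _s_at and _x_at probe sets and at an adjusted p under 0.1. Limma-trend added Ntsr2 and the Y-linked covariate lost S100b. Over the whole array 796 probe sets were called, against 1757 of 22519 with the dim filter, 1770 with limma-trend, 4205 with array weights, 445 with the Y-linked covariate, 2035 at the looser threshold and 65 to 3037 with 1 array left out. Array weights called 1 identity gene as higher (Gjb6) and 5 reactive genes as higher. With the replicate number as a block (replicate block), 0 identity genes were lower and 1 reactive gene, Gfap, was higher, and 154 probe sets were called in all. The numbers are not said to pair animals, and same-numbered arrays did not deviate together (r of -0.20, -0.04 and -0.17; no array correlated best with its own number). With single arrays left out, 0 to 4 identity genes were lower and 0 to 7 reactive genes higher; their medians ranged from -0.20 to -0.0915 and from 0.25 to 0.43. Leaving out both arrays numbered 2, chosen after the values were seen, gave 0 identity genes lower and 3 reactive genes higher (Gfap, Fbln5 and Cd44), with 314 probe sets called. Fewer arrays leave fewer degrees of freedom; beyond that, the cause was not tested.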
